A study of Mus musculus with 4 samples.

Results

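Ephb2, Ephb3, Ephb4, Efnb1, Efnb2, Cd44 and Sox9 are genes whose products mark or set the position of a cell along the intestinal crypt. They were taken by symbol from the gene lists of the libraries, and all 7 were found among the 31053 genes. The data were single-cell RNA counts of sorted TOM+ cells, that is, cells carrying a red fluorescent reporter switched on by Cre recombinase, from crypts of the mouse duodenum. The WT libraries came from Atoh1CreER-T2;R26RTom mice and the APC-KO libraries from mice labelled Atoh1Cre;Apcfl/fl;R26RTom, with 2 libraries per genotype. The series text names the inducible driver Atoh1CreER-T2 for both genotypes. Both genotypes carried the reporter and received tamoxifen (1 mg/mL) by intraperitoneal injection in 2 doses 24 h apart, and crypts were harvested 12 h after the last dose. Atoh1 is a transcription factor of secretory progenitors, so the driver and the sort set which cells were seen. The sources used here do not give the ages and sexes of the mice, or whether the 2 libraries of a genotype came from separate mice. P-values therefore measure the spread between libraries, which may be technical.

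Eph receptors are tyrosine kinases that bind ephrins, ligands that are themselves anchored in the membrane of the neighbouring cell, so that signalling needs contact and often leads to repulsion of the cells. In the intestinal epithelium, EphB2 and EphB3 are Wnt target genes that are high at the crypt base, while ephrin-B1 and ephrin-B2 are higher towards the villus, and the opposed gradients keep cell populations sorted. Mice without EphB3 have Paneth cells scattered away from the crypt base. CD44, a receptor for hyaluronan, and SOX9, a transcription factor needed for Paneth cells, are also Wnt targets of the lower crypt. APC is part of the complex that marks β-catenin for degradation, and its loss switches Wnt target genes on.

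In the GENCODE annotation of GRCm38, the receptor genes lie at chr4:136647539-136835988 on the minus strand (Ephb2, ENSMUSG00000028664), chr16:21204755-21223305 on the plus strand (Ephb3, ENSMUSG00000005958) and chr5:137350109-137378669 on the plus strand (Ephb4, ENSMUSG00000029710). The ligand genes lie at chrX:99136130-99148991 on the plus strand (Efnb1, ENSMUSG00000031217) and chr8:8617434-8661242 on the minus strand (Efnb2, ENSMUSG00000001300). Cd44 (ENSMUSG00000005087) lies at chr2:102811141-102901665 on the minus strand and Sox9 (ENSMUSG00000000567) at chr11:112782224-112787760 on the plus strand. RefSeq promoter sequences (GRCm38.p6, 250 bases before to 50 bases after the gene's start) matched 6 of the 7 genes, all but Sox9. Those of Ephb2, Ephb3 and Cd44 are shown because these are the members best known as targets of TCF factors, which bring β-catenin to DNA. They are written 5′ to 3′ on the gene's strand, with any match to the TCF core letters CTTTG, or CAAAG on the other strand, in capitals.
Ephb2, chr4:136835963-136836262, minus strand: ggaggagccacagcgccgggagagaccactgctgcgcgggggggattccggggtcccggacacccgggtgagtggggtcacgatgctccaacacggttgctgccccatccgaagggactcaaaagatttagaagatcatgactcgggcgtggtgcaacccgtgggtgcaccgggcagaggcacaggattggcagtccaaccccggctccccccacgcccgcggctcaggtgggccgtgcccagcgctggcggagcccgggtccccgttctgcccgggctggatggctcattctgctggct
Ephb3, chr16:21204545-21204844, plus strand: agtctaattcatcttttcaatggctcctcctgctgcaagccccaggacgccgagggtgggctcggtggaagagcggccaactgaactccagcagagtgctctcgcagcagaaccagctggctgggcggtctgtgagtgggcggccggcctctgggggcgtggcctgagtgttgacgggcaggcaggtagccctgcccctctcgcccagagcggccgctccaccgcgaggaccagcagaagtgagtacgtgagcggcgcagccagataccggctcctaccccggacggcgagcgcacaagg
Cd44, chr2:102901616-102901915, minus strand: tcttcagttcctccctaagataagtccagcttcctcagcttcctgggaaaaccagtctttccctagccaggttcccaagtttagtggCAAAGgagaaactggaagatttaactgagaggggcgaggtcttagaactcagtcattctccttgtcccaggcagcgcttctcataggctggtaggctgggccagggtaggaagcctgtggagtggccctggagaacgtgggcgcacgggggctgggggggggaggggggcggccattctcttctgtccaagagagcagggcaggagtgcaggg
The core letters occurred once, in the Cd44 promoter at position -163 from the start, and in none of the other 5 promoters. On either strand they occur in 53.9% of the 32851 promoters of the same length. The longer form CTTTGAT, or ATCAAAG, which overlaps the core, was in none of the 6 and in 3.73% of all promoters. A match is a match of letters only, and its absence from this window says nothing of TCF binding.

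The authors' tables kept 4814 and 3821 cells of the WT libraries (replicates 1 and 2), and 356 and 6243 cells of the APC-KO libraries (replicates 1 and 2). These cells held 24677647, 21003179, 3009636 and 27285079 UMIs (unique molecular identifiers, each counting 1 captured RNA molecule). APC-KO replicate 1 stood apart by its few cells, which bears on every genotype value below. Libraries shared between 1 and 8 kept barcodes per pair. Apc, the floxed gene, stood at 87.2 and 77.9 counts per 1e6 UMIs (CPM) in the WT and at 88.1 and 88.1 CPM in the APC-KO libraries. The sources used here do not give the floxed exons, and 3′ tags outside a deleted part do not check the deletion. Each kept cell carried 1 of 12 names given by the authors, printed here as deposited. The marker lists of the ISC, ENTERO-PRO, GOBLET-PRE, GOBLET, PANETH-PRE, PANETH, EC, NON-EC and TUFT cells were summed higher in those cells than in all cells of the same library, in every library. The exception was EEC-PRE, whose endocrine markers stood at 0.363 to 1.09 times the level in all cells. That level includes EC cells, where the list summed to at least 62605 CPM. In EEC-PRE cells it summed to 2430 to 3301 CPM, against at most 421 CPM in types other than EEC-PRE, EC and NON-EC. SEC-PRO and GP cells had no marker list of their own and were not checked. Markers of non-epithelial cells were low: the summed level of 8 immune genes was 3.33 to 9.60 CPM, of 6 mesenchymal genes 0.0952 to 1.33 CPM and of 5 endothelial genes 0.843 to 2.66 CPM over all kept cells.

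UMIs were summed over the cells of each name in each library and divided by the sum's total, which gives CPM. Sums of under 10 cells were left out, which removed SEC-PRO (5 cells), GP (7 cells) and TUFT (8 cells) of APC-KO replicate 1, so these 3 types have 3 libraries and the others 4. The names were made from the same cells, so levels over the types are a description and carry no test. CPM is a share of all UMIs: genes of the goblet and Paneth marker lists and the defensins took 37.6% to 45.0% of the UMIs of GOBLET cells and 41.5% to 57.6% of those of PANETH cells, against 0.360% to 1.11% in ISC cells, which lowers the CPM of every other gene in GOBLET and PANETH cells. Errors are SDs over libraries.

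**Figure D1:**
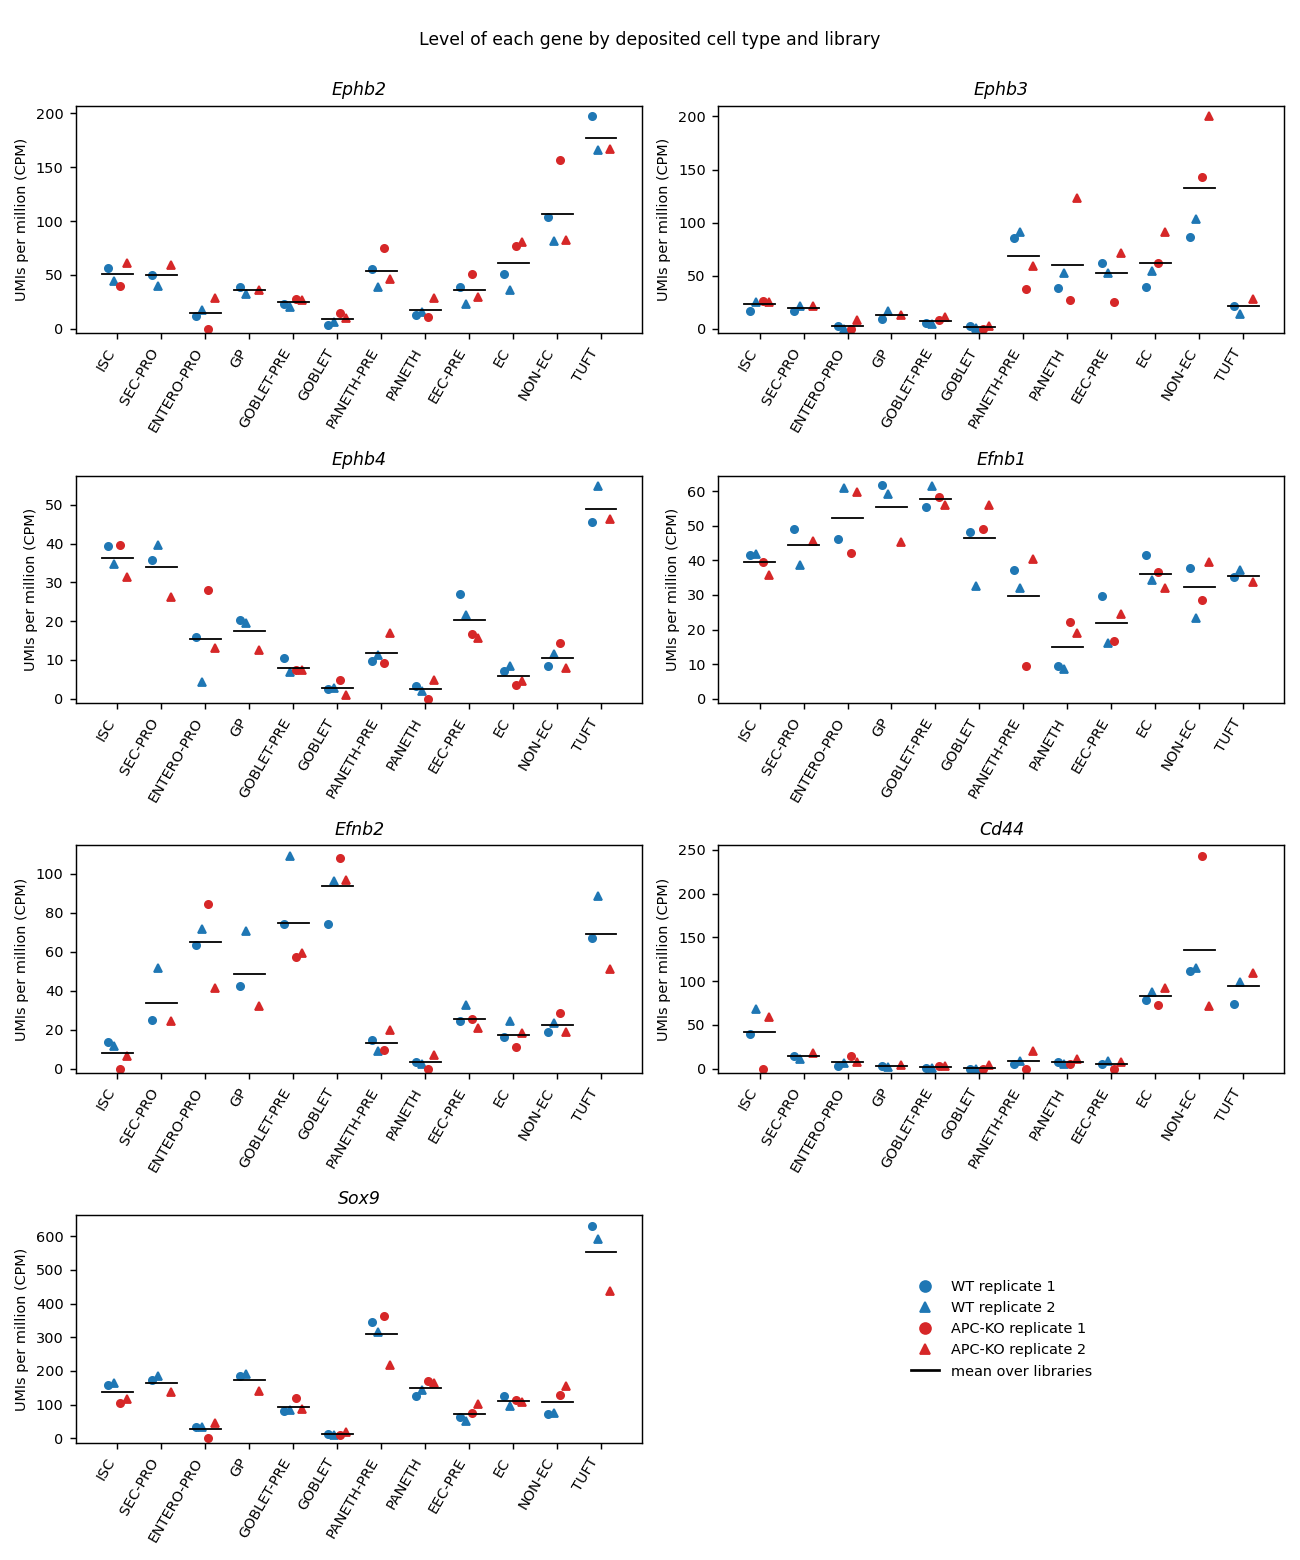
Level of each of the 7 genes (vertical axes, CPM, linear and separate for each gene) in the 12 deposited cell types (horizontal axes). Points are libraries, blue for WT and red for APC-KO, circles for replicate 1 and triangles for replicate 2, sums of at least 10 cells only, and lines are means; Efnb2 is highest in GOBLET cells at a mean of 93.7 CPM, where Ephb3 is lowest at 1.56 CPM.

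Ephb2, a receptor that binds both ephrin-B ligands, was highest in TUFT cells at 197, 166 and 167 CPM in both WT libraries and APC-KO replicate 2. The TUFT values did not overlap those of NON-EC cells, the next type at 106 ± 35.5 CPM (SD, n = 4), which in turn lay above EC cells at 61.3 ± 21.2 CPM. PANETH-PRE, ISC and SEC-PRO cells followed at 53.7 ± 15.5, 50.5 ± 10.1 and 49.5 ± 9.46 CPM, and their ranges overlapped. Stem cells are where this receptor is best known, and the ISC values were 56.3 and 44.7 CPM for WT and 39.6 (from 3 UMIs) and 61.5 CPM for APC-KO. GP and EEC-PRE cells both stood at a mean of 35.7 CPM, with SDs of 3.25 and 11.8, and GOBLET-PRE, PANETH and ENTERO-PRO cells at 24.6 ± 3.48, 17.1 ± 7.98 and 14.6 ± 12.1 CPM. GOBLET cells were lowest at 8.74 ± 4.78 CPM, from 3 to 10 UMIs per library. Of the 11 pairs of neighbours in this order, 8 had overlapping ranges.

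The second receptor, Ephb3, had another order. NON-EC cells were highest with 86.2 and 103 CPM for WT and 143 and 200 CPM for APC-KO. PANETH-PRE (68.6 ± 25.1 CPM), EC (61.7 ± 21.8 CPM), PANETH (60.2 ± 42.7 CPM) and EEC-PRE cells (52.8 CPM, range 25.2 to 71.7 CPM) followed without a gap between their ranges. PANETH cells themselves spanned 38.6 and 52.2 CPM for WT and 27.6 (5 UMIs) and 123 CPM (226 UMIs) in APC-KO, the widest spread of this gene relative to its mean among the types with a mean over 10 CPM. ISC, TUFT, SEC-PRO and GP cells lay lower, at 23.5 ± 4.42, 21.2 ± 6.85, 19.9 ± 2.99 and 13.2 ± 3.64 CPM. TUFT cells, at the top for Ephb2, were thus seventh of the 12 types for Ephb3. GOBLET-PRE, ENTERO-PRO and GOBLET cells were lowest at 7.36 ± 2.94, 2.75 ± 3.94 and 1.56 ± 1.44 CPM. GOBLET cells held 2, 1, 0 and 3 UMIs of Ephb3 over the libraries in the order WT 1, WT 2, APC-KO 1, APC-KO 2, and 0 UMIs there allows up to 14.7 CPM. All 11 neighbouring pairs overlapped.

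Ephb4, a receptor that prefers ephrin-B2 and is best known from veins, was highest in TUFT cells (48.9 ± 5.12 CPM), then in ISC (36.3 ± 3.94 CPM) and SEC-PRO cells (33.9 ± 6.92 CPM). The ISC values lay close together at 39.4 and 34.8 CPM for WT and 39.6 and 31.4 CPM for APC-KO. EC, GOBLET and PANETH cells were the lowest, with 5.99 ± 2.27 CPM, 2.80 ± 1.60 CPM and 2.55 ± 2.08 CPM. Between them lay EEC-PRE (20.3 ± 5.11 CPM), GP (17.5 ± 4.37 CPM), ENTERO-PRO (15.4 ± 9.82 CPM), PANETH-PRE (11.9 ± 3.49 CPM), NON-EC (10.6 ± 2.95 CPM) and GOBLET-PRE cells (7.99 ± 1.69 CPM). Ephb4 thus ranked NON-EC cells eighth and PANETH cells last, where for Ephb3 NON-EC cells came first and 3 types lay above PANETH cells. Of the neighbours, 10 of 11 pairs overlapped.

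Among the ligands, Efnb2 (ephrin-B2) had its highest mean in GOBLET cells, the type where the means of Ephb2 and Ephb3 were lowest. Its GOBLET values were 74.0 and 96.3 CPM for WT and 108 and 96.8 CPM for APC-KO. In both WT libraries GOBLET-PRE cells lay higher, at 74.1 and 109 CPM. GOBLET-PRE (75.0 ± 24.0 CPM), TUFT (68.8 ± 18.7 CPM), ENTERO-PRO (65.2 ± 18.1 CPM) and GP cells (48.3 ± 19.9 CPM) came next. SEC-PRO, EEC-PRE, NON-EC, EC and PANETH-PRE cells descended from 33.6 ± 15.7 through 25.7 ± 4.81, 22.4 ± 4.55 and 17.4 ± 5.64 to 13.2 ± 5.09 CPM. ISC cells stood at 13.7 and 11.4 CPM for WT and at 0 (of 75796 UMIs, which allows up to 39.6 CPM) and 6.52 CPM for APC-KO. PANETH cells were lowest at 3.39 and 2.42 CPM for WT and 0 and 7.05 CPM for APC-KO, below GOBLET cells in every library.

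Efnb1 (ephrin-B1) had the smallest ratio of its highest to its lowest type mean among the 7 genes. Its means fell from 57.8 ± 2.76 CPM in GOBLET-PRE, 55.4 ± 8.92 CPM in GP and 52.2 ± 9.46 CPM in ENTERO-PRO cells to 21.8 ± 6.44 CPM in EEC-PRE and 14.8 ± 6.74 CPM in PANETH cells. GOBLET (46.4 ± 9.90 CPM), SEC-PRO (44.5 ± 5.28 CPM), ISC (39.6 ± 2.86 CPM), EC (36.0 ± 4.12 CPM), TUFT (35.3 ± 1.75 CPM), NON-EC (32.3 ± 7.77 CPM) and PANETH-PRE cells (29.8 ± 14.1 CPM) filled the range between. As with Efnb2, PANETH cells were the lowest type, at 9.49 and 8.70 CPM for WT and 22.1 and 19.0 CPM for APC-KO. All 11 neighbouring pairs overlapped for each ligand.

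Cd44 was split between a few types. NON-EC cells held 112 and 115 CPM for WT and 243 (17 UMIs) and 71.3 CPM for APC-KO. TUFT and EC cells followed at 93.9 ± 18.0 and 83.0 ± 8.53 CPM, and the EC values did not overlap those of ISC cells below them. In ISC cells Cd44 stood at 39.7 and 68.1 CPM for WT and at 0 and 58.6 CPM for APC-KO, where the 0 came from 13 cells and allows up to 39.6 CPM. The remaining types had means from 14.5 ± 3.65 CPM in SEC-PRO through 8.56 ± 8.62 in PANETH-PRE, 7.71 ± 2.71 in PANETH, 7.59 ± 4.75 in ENTERO-PRO, 5.34 ± 3.86 in EEC-PRE and 3.03 ± 1.03 in GP to 1.86 ± 0.892 in GOBLET-PRE cells. GOBLET cells held 0, 0, 0 and 4 UMIs, a mean of 1.02 ± 2.04 CPM. EEC-PRE and EC cells share an endocrine name in the authors' tables, yet Cd44 was at most 9.00 CPM in the former and at least 73.2 CPM in the latter. The summed level of the 8 immune genes, which white blood cells that carry CD44 would bring, was 0 to 45.5 CPM in EC and 2.84 to 30.1 CPM in NON-EC cells, highest in APC-KO replicate 2 for both types, and its part in the Cd44 level was not tested.

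Sox9 was highest in TUFT cells at 630, 592 and 437 CPM in both WT libraries and APC-KO replicate 2. PANETH-PRE cells came second at 344 and 316 CPM for WT and 364 and 218 CPM for APC-KO, apart from both the type above and the type below. GP (173 ± 26.6 CPM), SEC-PRO (166 ± 24.5 CPM), PANETH (151 ± 20.1 CPM) and ISC cells (137 ± 29.7 CPM) overlapped with one another. EC, NON-EC, GOBLET-PRE and EEC-PRE cells stood at 111 ± 12.9, 108 ± 40.6, 93.2 ± 18.9 and 73.0 ± 21.6 CPM. ENTERO-PRO and GOBLET cells were lowest, at 28.1 ± 19.4 and 12.9 ± 5.15 CPM, with no overlap between the ranges of EEC-PRE and ENTERO-PRO cells. The GOBLET values were 12.3 and 9.20 CPM for WT and 9.79 and 20.4 CPM for APC-KO.

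RNA free in the droplets gives the level that a sum made of free RNA alone would show. The share of free RNA in the kept cells was not measured, so a value below that level may or may not hold expression. Barcodes with 1 to 50 UMIs, taken as free RNA, held Ephb2 at 20.8 to 37.4 CPM, Ephb3 at 9.61 to 26.2 CPM, Cd44 at 11.7 to 32.1 CPM, Efnb2 at 23.0 to 40.8 CPM and Sox9 at 79.6 to 156 CPM. All 4 GOBLET values of Ephb2, Ephb3, Ephb4, Cd44 and Sox9 lay below the free RNA of their own library. The same held for all 4 PANETH values of Ephb2, Ephb4, Efnb1, Efnb2 and Cd44, all 4 ISC values of Efnb2, and all 4 values of Efnb1 in EEC-PRE and NON-EC cells. In contrast, all 4 NON-EC values of Ephb2, Ephb3 and Cd44, all 4 PANETH values of Ephb3 and all 4 GOBLET values of Efnb2 lay above it.

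The receptors and ligands were also set against each other within each sum, as the log2 ratio of the UMIs of Ephb2, Ephb3 and Ephb4 to those of Efnb1 and Efnb2, a measure chosen after the levels had been seen. Because it is a ratio within a sum, the share taken by secretory genes drops out of it. GOBLET cells had the lowest ratio, -3.48 ± 0.36 (SD, n = 4), from 7, 14, 4 and 14 receptor UMIs against 99, 182, 32 and 150 ligand UMIs. ENTERO-PRO, GOBLET-PRE and GP cells followed at -1.91 ± 0.68, -1.73 ± 0.48 and -0.61 ± 0.30, and SEC-PRO cells at 0.41 ± 0.23. EEC-PRE (1.19 ± 0.16), ISC (1.23 ± 0.26), EC (1.23 ± 0.55) and TUFT cells (1.26 ± 0.31) did not differ beyond their spread. PANETH-PRE, PANETH and NON-EC cells had the highest ratios, 1.76 ± 0.70, 2.04 ± 0.85 and 2.17 ± 0.28, and every value of these 3 types lay above every value of the GOBLET, ENTERO-PRO, GOBLET-PRE, GP and SEC-PRO cells. TUFT cells kept a positive ratio although their Efnb2 level, at 68.8 ± 18.7 CPM, was among the highest. Both ends of the order rest on levels below the free RNA of every library. These are the receptors in GOBLET cells, both ligands in PANETH and PANETH-PRE cells, and Efnb1 in NON-EC cells. PANETH cells held 19, 23, 4 and 48 ligand UMIs over the libraries.

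**Figure D2:**
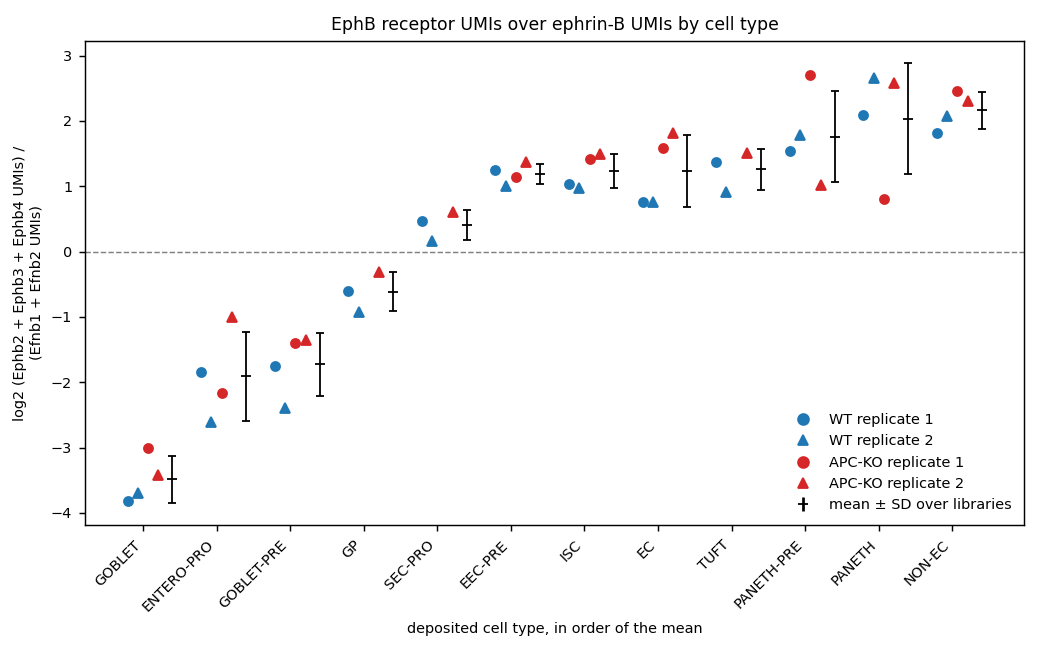
Log2 ratio of EphB receptor UMIs (Ephb2, Ephb3, Ephb4) to ephrin-B UMIs (Efnb1, Efnb2) on the vertical axis, for the 12 cell types in order of the mean on the horizontal axis. Points are libraries, coloured and shaped by genotype and replicate, black marks are means with SD, and the ratio runs from -3.48 in GOBLET to 2.17 in NON-EC cells.

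Differences along the crypt were taken within each library as differences of log2(CPM + 1), with n = 4 libraries and no test. This scale understates the change of low genes, except that a sum of 0 UMIs from few cells can overstate it. From ISC to GOBLET cells, the receptors stood higher in ISC cells by 2.52 ± 0.92 (Ephb2), 3.45 ± 1.12 (Ephb3) and 3.39 ± 0.52 (Ephb4), in 4 of 4 libraries each. Sox9 was higher in ISC cells by 3.35 ± 0.65 in 4 of 4 libraries and Cd44 by 3.75 ± 2.72 in 3 of 4, the other library having 0 UMIs of Cd44 in both types. Efnb2 had the opposite sign, at -3.95 ± 1.96 and lower in ISC cells in 4 of 4 libraries. Its lowest value, -6.76, came from APC-KO replicate 1, where 0 UMIs in ISC cells allow up to 39.6 CPM. Efnb1 differed by -0.20 ± 0.41, less than the spread between libraries, although with the secretory genes left out of the totals, a setting added after the data had been seen, it stood at -0.93. Between PANETH and GOBLET cells, Ephb3 was higher in PANETH cells by 4.56 ± 0.70, Sox9 by 3.50 ± 0.50 and Cd44 by 2.49 ± 0.83, in 4 of 4 libraries each. Efnb2 and Efnb1 were lower by the same measure, at -4.82 ± 1.39 and -1.66 ± 0.47, in 4 of 4 libraries. The Efnb2 mean includes -6.76 from APC-KO replicate 1, where 0 UMIs in PANETH cells allow up to 16.6 CPM. Ephb2 was higher in 3 of 4 libraries (0.95 ± 0.90), and Ephb4 was split between 2 libraries up and 2 down (-0.27 ± 1.72). The GOBLET side of each difference in Ephb2, Ephb3, Ephb4, Cd44 and Sox9 rests on values below free RNA, and so does the PANETH side in Ephb2, Ephb4, Efnb1, Efnb2 and Cd44.

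The members resembled each other only in part. Over the 12 type means of log2(CPM + 1), Pearson's r was 0.82 between Ephb2 and Sox9, 0.77 between Ephb2 and Cd44, 0.69 between Ephb2 and Ephb3 and 0.72 between Efnb1 and Efnb2. It was -0.65 between Ephb3 and each of Efnb1 and Efnb2, and 0.10 between Ephb3 and Ephb4. The other receptors did not share the negative values of Ephb3 with the ligands: with Efnb1 and Efnb2, r was -0.11 and -0.13 for Ephb2 and 0.28 and 0.15 for Ephb4. These are descriptions, since the types share libraries and each other's totals. Among 5727 genes with a mean of at least 20 CPM, the patterns most like that of Ephb2 were those of Zbtb41 (r = 0.962), Mphosph8 (0.951) and Blnk (0.931). Ephb3 was nearest to Zfp503 (0.943), Dach1 (0.934) and Kif21a (0.908), and Ephb4 to Phf5a (0.954), Bola1 (0.945) and Cdkn2aipnl (0.942). The nearest to Efnb1 were Eif6 (0.941), Fam3c (0.940) and Lgalsl (0.931), and to Efnb2 Stap2 (0.960), Ms4a8a (0.943) and Scamp2 (0.923). For Cd44 they were Arl2 (0.925), Nmt2 (0.916) and Meaf6 (0.893), and for Sox9 Pim3 (0.918), Smoc2 (0.888), which is itself a stem cell marker, and Fam129b (0.869).

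The genotypes were then compared for the members in all kept cells (ALL) and in the 9 types with at least 10 cells in each library, each fitted over the whole gene table (edgeR, quasi-likelihood, Benjamini-Hochberg threshold 0.05). None of the 55 pairs of member and fit passed the adjusted threshold. At an unadjusted p under 0.05 there were 11, all in types, where 7.62% to 12.2% of all genes lay under it. The 11 were picked by that p, and in each of them the genotypes did not overlap. That lack of overlap adds nothing to the p, and its share over all genes was not counted. The DESeq2 Wald test called 0, with no adjusted p for 22 of the pairs. Over all cells, 0% of 13345 genes passed the adjusted threshold and 3.71% the unadjusted one, and 0 of the 7 members passed either. In the types, 0% to 3.57% of all genes passed the adjusted threshold.

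Over all kept cells the levels of Ephb3 were 20.2 and 22.9 CPM for WT and 19.6 and 36.5 CPM for APC-KO (log2 fold change 0.49, SE 0.28, edgeR adjusted p = 1.000). Only APC-KO replicate 2 lay above the WT libraries. Without APC-KO replicate 1 the log2 fold change was 0.78, in a fit with 1 APC-KO library, where a p would rest on the WT pair alone. Without APC-KO replicate 2 it was 0.07, and in an equal mix of the types 0.24 with a limma adjusted p of 0.989. Ephb3 passed in no alternative that kept all libraries. The other receptors gave 0.30 (SE 0.22) for Ephb2 and -0.19 (SE 0.28) for Ephb4, the ligands 0.06 (SE 0.17) for Efnb1 and -0.42 (SE 0.38) for Efnb2, and the remaining members 0.39 (SE 0.22) for Cd44 and -0.03 (SE 0.16) for Sox9, each with an edgeR adjusted p of 1.000. Efnb2 illustrates the spread, at 41.4 and 67.0 CPM for WT and 47.2 and 29.8 CPM for APC-KO, with overlapping groups. A sum over all cells follows the mix of types, which differed between libraries.

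**Figure D3:**
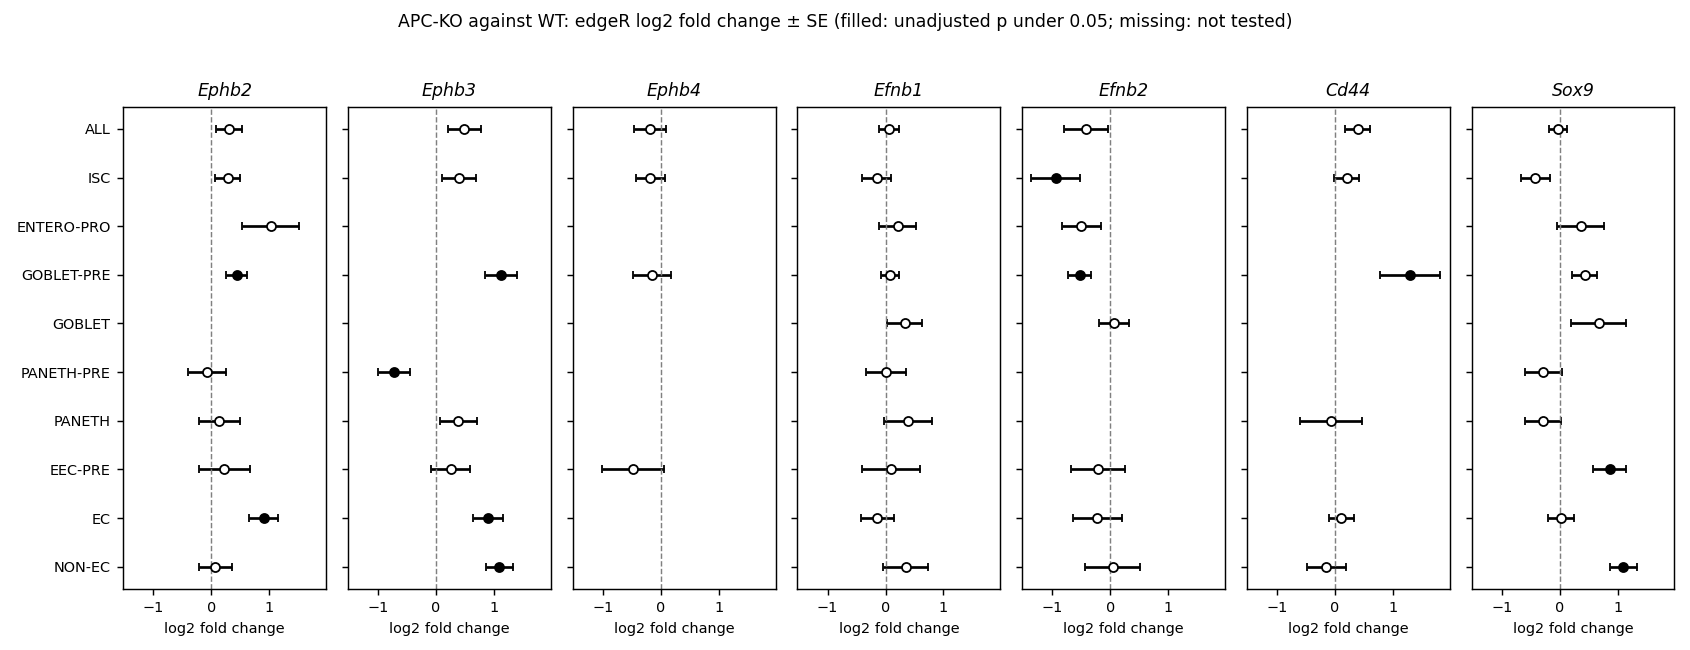
Log2 fold change of APC-KO against WT on the horizontal axes (edgeR, bars are SEs) for the 7 genes in all kept cells and in the 9 fitted types on the vertical axis. Filled points have an unadjusted p under 0.05 and a missing point was not tested because of low counts; Ephb3 stands at 1.09 in NON-EC and at -0.73 in PANETH-PRE cells, and no value passed the adjusted threshold.

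NON-EC cells came nearest to a call. There Ephb3 stood at 86.2 and 103 CPM for WT and at 143 (10 UMIs, 13 cells) and 200 CPM (126 UMIs, 217 cells) in APC-KO, and Sox9 at 73.0 and 75.6 CPM for WT and at 129 (9 UMIs) and 155 CPM for APC-KO. For both genes, picked by their unadjusted p, each APC-KO value lay above each WT value. The log2 fold changes were 1.09 (SE 0.23) for Ephb3 and 1.10 (SE 0.23) for Sox9, each with an edgeR adjusted p of 0.102. In this fit 0.113% of 7959 genes passed the adjusted and 8.90% the unadjusted threshold, and 0 and 2 of the 6 members tested did. Without APC-KO replicate 1, which leaves 1 APC-KO library, Ephb3 stood at 1.19 and Sox9 at 1.16. With no filter on low counts both passed (edgeR adjusted p = 0.00625 and 0.0103). With cells thinned to 2000 UMIs, Ephb3 alone passed (1.39, edgeR adjusted p = 0.00941). The share of all genes called in these settings was not counted. Neither gene passed with DESeq2 size factors, the DESeq2 Wald test or the replicate number as a block. Without APC-KO replicate 2, Ephb3 stood at 0.58 and Sox9 at 0.76. Ephb2 (0.07, SE 0.28) and Cd44 (-0.15, SE 0.34), both high in NON-EC cells, had SEs larger than their log2 fold changes. Both WT values of Sox9 in NON-EC cells lay below the free RNA of their library, and both APC-KO values above it.

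At 2000 UMIs per cell, the share of NON-EC cells with an Ephb3 UMI was 15.1% (exact 95% interval 11.1% to 19.8%) and 13.9% (9.19% to 19.8%) for WT and 38.5% (13.9% to 68.4%, 13 cells) and 33.1% (26.2% to 40.7%) in APC-KO. Unthinned, it was 21.6% and 25.5% for WT and 53.8% and 40.6% in APC-KO, where the median NON-EC cell had 3315, 3533.5, 5727 and 2406 UMIs in the same order of libraries. GOBLET cells, the type lowest for Ephb3, had thinned shares of 0.613%, 0%, 0% and 0.784%, at median depths of 4904, 5252, 6906 and 3624 UMIs; 26, 8, 0 and 45 NON-EC cells and 0, 0, 1 and 1 GOBLET cells under 2000 UMIs were left out. For Sox9 the thinned NON-EC shares were 11.8% and 13.3% for WT and 23.1% and 23.3% in APC-KO. Intervals cover counting error only. Markers of other types also differed between the NON-EC sums: the goblet list summed to 9192 and 7197 CPM for WT and 3841 and 21453 CPM for APC-KO, the Paneth list to 2603 and 2636 against 700 and 5029 CPM, and the immune list to 2.84 and 2.91 against 14.3 and 30.1 CPM. All 3 were highest in APC-KO replicate 2, and their part in the Ephb3 and Sox9 values was not tested.

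In EC cells the receptors Ephb2 and Ephb3, both picked by their unadjusted p, lay higher in each APC-KO library than in each WT library. Ephb2 was at 51.1 and 36.3 CPM for WT and 76.9 and 80.8 CPM for APC-KO (log2 fold change 0.90, SE 0.25, edgeR adjusted p = 0.406). Ephb3 was at 39.1 and 54.5 CPM for WT and 62.2 and 91.1 CPM for APC-KO (0.89, SE 0.26, edgeR adjusted p = 0.423). Neither passed, and in this fit 0% of 8690 genes passed the adjusted and 8.39% the unadjusted threshold. Without APC-KO replicate 1, which leaves 1 APC-KO library, Ephb2 stood at 0.90 and Ephb3 at 1.03. Without APC-KO replicate 2, Ephb3 stood at 0.51. Neither receptor passed in any alternative that kept all libraries. Sox9 overlapped between the genotypes in these cells (0.02, SE 0.22), with 127 and 96.2 CPM for WT and 113 and 107 CPM for APC-KO. The goblet list summed to 6407 and 4894 CPM in the WT and 3704 and 12091 CPM in the APC-KO sums of EC cells, and its part was not tested.

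EEC-PRE cells held Sox9, also picked by its unadjusted p, at 64.6 and 50.4 CPM for WT and 75.7 (9 UMIs) and 101 CPM for APC-KO, without overlap. The log2 fold change was 0.86 (SE 0.29, edgeR adjusted p = 0.270). It was 0.93 without APC-KO replicate 1 and 0.54 with APC-KO replicate 2 left out, each with 1 APC-KO library. Sox9 passed in no alternative that kept all libraries. The adjusted threshold was passed by 0.654% and the unadjusted one by 8.81% of 6573 genes in this fit. All 4 values lay below the free RNA of their library. The goblet list summed to 10832 and 6997 CPM for WT and 11256 and 20821 CPM for APC-KO in these sums and the immune list to 37.8 to 66.0 CPM, and their part in the Sox9 value was not tested. Ephb3 overlapped between the genotypes in EEC-PRE cells (0.25, SE 0.33).

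GOBLET-PRE cells, the type with most cells in 3 of the 4 libraries, had 4 of 7 members at an unadjusted p under 0.05, where 7.95% of 10272 genes were, and none past the adjusted threshold, which 0.00974% of genes passed. Ephb3 stood at 5.11 and 4.87 CPM for WT and 8.42 and 11.0 CPM for APC-KO (log2 fold change 1.12, SE 0.28, edgeR adjusted p = 0.522). Ephb2 stood at 22.8 and 20.6 CPM for WT and 28.1 and 26.9 CPM for APC-KO (0.44, SE 0.18, edgeR adjusted p = 0.618). The ligand Efnb2 lay the other way, at 74.1 and 109 CPM for WT and 57.2 and 59.4 CPM for APC-KO (-0.53, SE 0.19, edgeR adjusted p = 0.610). Without WT replicate 2 it stood at -0.28, and without WT replicate 1 at -0.74. Cd44 rested on 8, 7, 5 and 11 UMIs, or 1.20 and 1.00 CPM for WT and 2.81 and 2.43 CPM for APC-KO (1.30, SE 0.52, edgeR adjusted p = 0.618). For these 4 genes the groups did not overlap. They were picked by that unadjusted p, so the lack of overlap adds nothing to it, and its share over all genes was not counted. The Ephb3 and Cd44 levels lie below free RNA in every library. The Paneth list, which marks cells where Ephb3 is high, summed to 7069 and 6137 CPM for WT and 7634 and 15151 CPM for APC-KO within GOBLET-PRE cells, and its part in the Ephb3 value was not tested.

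PANETH-PRE cells gave the only negative Ephb3 value among the fits. The levels were 86.0 and 91.5 CPM for WT and 37.3 (4 UMIs) and 59.6 CPM for APC-KO, without overlap (log2 fold change -0.73, SE 0.28, edgeR adjusted p = 0.249). The adjusted threshold was passed by 1.53% of 5568 genes in this fit and the unadjusted one by 12.1%. Without APC-KO replicate 2 the value was -1.11. The Paneth list summed to 130252 and 110888 CPM for WT and 97636 and 41344 CPM for APC-KO in the same cells, and its part in the Ephb3 value was not tested. Mature PANETH cells gave 0.38 (SE 0.32) for Ephb3 and -0.29 (SE 0.31) for Sox9, with 1.41% of 6942 genes past the adjusted and 12.1% past the unadjusted threshold. For Sox9 the CPM had the other sign from this TMM-scaled value, with 126 and 144 CPM for WT and 171 and 163 CPM for APC-KO.

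In ISC cells the member at an unadjusted p under 0.05 was Efnb2, at 13.7 and 11.4 CPM for WT and 0 and 6.52 CPM for APC-KO (log2 fold change -0.94, SE 0.42, edgeR adjusted p = 0.268), all below free RNA. In the same sums the goblet list stood at 6814 and 4402 CPM for WT and 2929 and 4308 CPM for APC-KO and the Paneth list at 3608 and 3253 against 435 and 1888 CPM, and their part in the Efnb2 value was not tested. The stem cell receptors Ephb2 (0.28, SE 0.22) and Ephb3 (0.40, SE 0.29), Cd44 (0.20, SE 0.22) and Sox9 (-0.42, SE 0.25) did not pass, in a fit where 3.57% of 9792 genes passed the adjusted and 12.2% the unadjusted threshold. APC-KO replicate 1 gave 13 ISC cells. GOBLET cells (0.0837% of 5974 genes past the adjusted and 11.2% past the unadjusted threshold) had 3 members tested, with Efnb2 at 0.07 (SE 0.26), Efnb1 at 0.33 (SE 0.30) and Sox9 at 0.67 (SE 0.47). ENTERO-PRO cells (0.0788% of 6348 genes and 7.62%) had 4 members tested, with Ephb2 at 1.02 (SE 0.50, edgeR adjusted p = 0.672). Its levels there were 11.9 and 17.4 CPM for WT and 0 and 29.1 CPM for APC-KO, so the groups overlapped and their mean CPM were 14.6 and 14.5. The members missing from a fit had too few UMIs to be tested there.

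**Figure D4:**
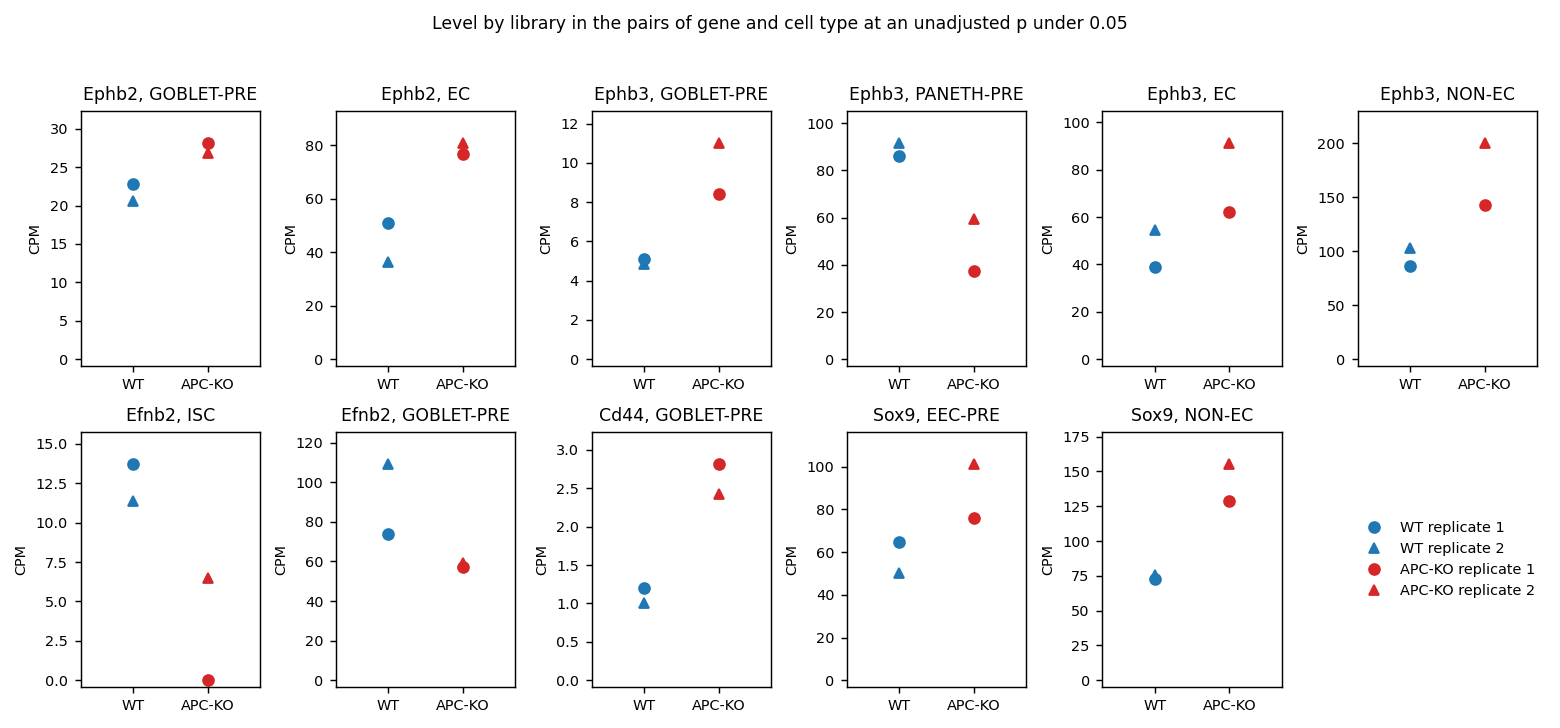
Level (vertical axes, CPM, from 0) in the 2 WT and 2 APC-KO libraries for the 11 pairs of gene and cell type at an unadjusted p under 0.05. Colours mark the genotype and shapes the replicate; the APC-KO values lie above the WT values in 8 panels and below them in Ephb3 of PANETH-PRE and in Efnb2 of ISC and GOBLET-PRE cells, and none passed the adjusted threshold.

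The rest of the pathway was read from 4 lists. None of the 17 other Eph receptors and ephrins passed the adjusted threshold (edgeR) in any fit, with 9 tested over all cells and 0 of them at an unadjusted p under 0.05. The most abundant, by mean CPM over all cells, were Efna4 (13.1, 12.6, 11.3 and 20.3 CPM over the libraries in the order WT 1, WT 2, APC-KO 1, APC-KO 2), Efna1 (11.8, 12.7, 9.97 and 10.0 CPM) and Epha2 (4.50, 9.14, 9.64 and 3.59 CPM). Efna4, an ephrin-A ligand anchored by a lipid, was highest in EEC-PRE cells at 78.8 ± 5.75 CPM (SD, n = 4), and the receptor Epha4 in NON-EC cells at 48.1 ± 7.17 CPM. Ephb1, Epha6 and Efna5 had 0 UMIs in all kept cells. Of 13 genes for signalling and sorting downstream of Eph receptors, all were tested over all cells and 0 passed (median log2 fold change 0.05, all genes 0.01; 1 at an unadjusted p under 0.05). They include Cdh1, which encodes E-cadherin (0.07, SE 0.22), the adaptor gene Sdcbp (-0.27, SE 0.31) and Adam10, which encodes a protease that cuts ephrins and cadherins (0.05, SE 0.16). Of 6 partners of CD44 and its splicing, 4 were tested and 0 passed (median -0.02), with Ezr at -0.12 (SE 0.21), Esrp1 at -0.14 (SE 0.15) and Esrp2 at 0.08 (SE 0.23). Of 14 other Wnt targets, 13 were tested over all cells and 0 passed (median 0.40, all genes 0.01; 0 at an unadjusted p under 0.05). Axin2, a feedback inhibitor of the pathway, was at 39.3 and 24.9 CPM for WT and 17.3 and 69.9 CPM for APC-KO (0.55, SE 0.60), with Ccnd1 at 0.12 (SE 0.21) and Prox1 at -0.29 (SE 0.18).

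Within types, 2 genes of these lists passed, both in ISC cells, where 5, 10, 4 and 11 genes of the lists were tested in the order above and 3.57% of all genes passed. The adaptor gene Nck1 was higher in APC-KO at 37.4 and 33.3 CPM in WT against 26.4 (2 UMIs) and 63.0 CPM (log2 fold change 0.83, SE 0.23, edgeR adjusted p = 0.0156), with overlapping groups. The transcription factor gene Myc was lower, at 56.3 and 66.0 CPM in WT against 0 and 29.4 CPM (-1.01, SE 0.24, edgeR adjusted p = 0.00216). Both calls were lost without WT replicate 1, WT replicate 2 or APC-KO replicate 2, each of which leaves 1 library in a genotype. They were also lost with the replicate number as a block (edgeR adjusted p = 1.000 and 0.258), and Nck1 with thinned cells (0.205). Without APC-KO replicate 2, Nck1 had the opposite sign, at -0.49, and Myc, with 0 UMIs left in APC-KO, stood at -9.62, a fitted value that is no bound.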

How the data were processed

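Libraries were made with the 10x Genomics single cell 3' v3.1 kit, per the labels' protocols. Cell Ranger 3.0.2, STAR and the build mm10 are named in the submitters' processing notes. The deposited matrices hold UMI counts per gene and barcode, unfiltered. The authors' deposited cell tables give UMI and gene counts, the mitochondrial percent and a cell type name for each kept cell; the ways of filtering cells, treating doublets and naming types are not given in the sources used here. Doublets were not called here.

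Counts of kept cells were summed per library and type (at least 10 cells) and fitted with edgeR 4.0.16 in R 4.3.3 (TMM, filterByExpr, quasi-likelihood test, Benjamini-Hochberg adjustment over all tested genes). Each fit held 2 WT and 2 APC-KO sums. Alternatives were DESeq2 1.42.0 size factors or its Wald test, no filter beyond 1 count, a replicate block, each library left out, thinned cells and, in ALL, an equal mix of types (limma 3.58.1). With a library left out, its genotype has 1 library, so a p of that fit rests on the spread of the other genotype alone. CPM differences used a pseudocount of 1. Cells were thinned to 2000 UMIs for shares. A single value compared exactly between 2 and 2 libraries cannot go below a p of 0.333, so no such test was made. On simulated data, genes changed by 2 on the log2 scale were recovered in 69.7% of cases in ALL (13094 genes) and 85.9% in NON-EC (7610 genes). The changed genes were drawn at random from all tested genes, and the largest log2 fold change of a member was 1.30. These rates therefore do not give the recovery of changes of the size seen in the members. Promoters are RefSeq sequences.

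The members, gene lists and settings were chosen with earlier results of these data known. Named besides the members are the 3 genes most alike in pattern per member, the 3 most abundant genes per list over all cells, and list genes past the threshold; Epha4 and the genes with 0 UMIs were named after their values were seen.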

Additional observations from a re-analysis of the deposited data

Results flagged for a closer look

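For 4 members, the APC-KO values lay above the WT values in every library of a type and below them in every library of another. The share of all genes that do so was not counted, so the count of 4 cannot be read as particular to the members. Comparing 2 against 2 libraries cannot give an exact p below 0.333. The difference between the types was not tested for any of the 4 members. Each value below is the difference of the 2 edgeR log2 fold changes, for the most separated types.

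Ephb3 was higher in APC-KO in GOBLET-PRE (1.12, SE 0.28), EC and NON-EC cells and lower in PANETH-PRE cells (-0.73, SE 0.28), and the values of GOBLET-PRE and PANETH-PRE differed by 1.84. Sox9 was higher in NON-EC cells (1.10, SE 0.23), GOBLET-PRE and EEC-PRE cells and lower in ISC cells (-0.42, SE 0.25), a difference of 1.52. The CPM of Sox9 in PANETH cells also lay above WT in both APC-KO libraries, but its fitted value was -0.29, so it is not counted among the higher types. Efnb2 was lower in ISC (-0.94, SE 0.42) and GOBLET-PRE cells, while in GOBLET cells it stood at 0.07 (SE 0.26), a difference of 1.01 from ISC cells. In GOBLET cells APC-KO replicate 2 lay above WT replicate 2 only by 96.8 against 96.3 CPM. Efnb1 stood at 0.39 (SE 0.41) in PANETH cells and at -0.15 (SE 0.25) in ISC cells, a difference of 0.54. Each of these 2 fold changes was smaller than its own SE. None of these fold changes passed the adjusted threshold.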

How the results depend on the processing

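APC-KO replicate 1, with 356 cells, set most limits. Of 89 counts of members called under an alternative, 83 stayed at 0. The others rose from 0. They were in ALL, EEC-PRE, EC and NON-EC without APC-KO replicate 1, which leaves 1 APC-KO library. In NON-EC they were also 2 with no filter on low counts and 1 with thinned cells. The share of all genes called in these settings was not counted, so the counts cannot be read as particular to the members. Replicate numbers do not mark a shared batch in the labels. Same-numbered libraries deviated with a correlation of -0.246 in ALL and from -0.0701 to 0.029 in the types, and with the replicate number as a block 0 members were called in each fit. Of the 55 fold changes of members, 22 kept their sign in every alternative and 33 turned it in 1 or more (60 of 465 values). The 22 include the 11 at an unadjusted p under 0.05. Groups did not overlap in those 11, so leaving out a library could hardly turn their sign. None of the 33 was a called change. The opposite sign stood as follows. In an equal mix of the types it was -0.18 in ALL for Cd44. With thinned cells it was 0.06 in ALL for Ephb4, 0.02 in ALL for Sox9, 0.07 in ISC for Efnb1, 0.46 in GOBLET-PRE for Ephb4, 0.46 in PANETH-PRE for Ephb2 and -0.24 in EEC-PRE for Ephb2. With the replicate block it was -0.37 in ISC for Cd44, -0.06 in PANETH-PRE for Efnb1, 0.32 in PANETH-PRE for Ephb2, 0.07 in PANETH for Cd44 and 0.09 in NON-EC for Cd44. By the DESeq2 Wald test it was -0.11 in ENTERO-PRO for Sox9 and 0.33 in NON-EC for Cd44. With DESeq2 size factors it was -0.01 in PANETH-PRE for Efnb1. With no filter it was -0.02 in PANETH-PRE for Efnb1 and -0.02 in EC for Sox9. Over the libraries left out, the fold changes that turned ran as follows. In ALL, Efnb1 (-0.09 to 0.24), Ephb4 (-0.59 to 0.05) and Sox9 (-0.10 to 0.07). In ISC, Cd44 (-9.38 to 0.35), Ephb2 (-0.43 to 0.46), Ephb4 (-0.26 to 0.03) and Nck1 (-0.49 to 0.87). In ENTERO-PRO, Efnb1 (-0.33 to 0.25), Efnb2 (-0.66 to 0.31) and Sox9 (-6.87 to 0.43). In GOBLET-PRE, Ephb4 (-0.47 to 0.24). In GOBLET, Efnb2 (-0.14 to 0.32) and Sox9 (-0.34 to 0.85). In PANETH-PRE, Efnb1 (-1.75 to 0.13), Ephb2 (-0.29 to 0.75) and Sox9 (-0.74 to 0.27). In PANETH, Cd44 (-0.60 to 0.21), Ephb2 (-0.70 to 0.17), Sox9 (-0.55 to 0.03) and Ephb3 (-1.03 to 0.61). In EEC-PRE, Efnb1 (-0.33 to 0.64), Ephb2 (-0.04 to 0.81), Efnb2 (-0.38 to 0.03) and Ephb3 (-1.02 to 0.45). In EC, Cd44 (-0.10 to 0.19), Efnb1 (-0.29 to 0.06), Efnb2 (-0.76 to 0.02) and Sox9 (-0.19 to 0.29). In NON-EC, Cd44 (-0.57 to 1.07), Efnb1 (-0.19 to 0.80), Ephb2 (-0.10 to 0.71) and Efnb2 (-0.09 to 0.43). The fitted -9.38 for Cd44 and -6.87 for Sox9 come from APC-KO with 0 UMIs left and are no bound. The cause was not tested.

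Of 126 alternatives to the differences between types, 108 moved by under 1 SD, which does not mean that the sign was kept. Ephb4 between PANETH and GOBLET cells, at -0.27 in all libraries, turned positive without APC-KO replicate 1. That library held 0 UMIs of Ephb4 in PANETH and 1 in GOBLET cells. With a pseudocount of 10 CPM, ISC minus GOBLET was 1.53 for Ephb3, 1.86 for Ephb4 and 2.68 for Sox9, and PANETH minus GOBLET 2.44 for Ephb3, -2.99 for Efnb2, 0.69 for Cd44 and 2.83 for Sox9. With thinned cells, ISC minus GOBLET was 3.75 for Ephb2 and 4.67 for Ephb4, and PANETH minus GOBLET 2.65 for Ephb2, 3.19 for Ephb3 and 3.64 for Cd44. With free RNA subtracted at 5%, ISC minus GOBLET was 3.99 for Ephb4 and 4.25 for Sox9, and PANETH minus GOBLET 4.42 for Sox9. With secretory genes left out of the totals, ISC minus GOBLET was 2.84 for Ephb4, -0.93 for Efnb1 and 2.65 for Sox9.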

Other observations

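The log2 ratio of EphB to ephrin-B UMIs, set out above over the types, was also read by genotype. Both APC-KO values lay above both WT values in ISC (1.03 and 0.98 for WT, 1.42 and 1.49 in APC-KO), GOBLET-PRE (-1.75 and -2.40, -1.40 and -1.35), GOBLET (-3.82 and -3.70, -3.00 and -3.42), EC (0.76 and 0.76, 1.58 and 1.82) and NON-EC cells (1.81 and 2.08, 2.46 and 2.31). The values overlapped over all cells (-0.06 and -0.68, -0.48 and 0.51) and in ENTERO-PRO (-1.85 and -2.61, -2.17 and -1.0), PANETH-PRE (1.54 and 1.78, 2.70 and 1.02), PANETH (2.09 and 2.66, 0.81 and 2.58) and EEC-PRE cells (1.25 and 1.00, 1.14 and 1.37). In APC-KO replicate 1 the ratio rested on 8 receptor and 3 ligand UMIs in ISC, 4 and 32 in GOBLET, and 22 and 4 in NON-EC cells. This measure was chosen after the levels had been seen and was not tested between genotypes. How often ratios of other genes separate the genotypes was not counted, so the list of types cannot be read as particular to these genes.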
